A study of Mus musculus with 56 samples.

Results

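The CC chemokines and receptors described here are 9 genes chosen by symbol, Ccl2, Ccl7, Ccl8, Ccl12, Ccl3, Ccl4, Ccl5, Ccr1 and Ccr2, of 58580 gene symbols listed in the series. All 9 were listed in every table. Cells were sorted from rectal tumors on day 14 after implantation and sequenced in bulk. The tumors were orthotopic implants of MC38-luc, a mouse colon carcinoma line, in female C57BL6 mice that were 6 to 8 weeks old. Cancer-associated fibroblasts (CAFs) were sorted as CD45-, CD31-, podoplanin+, PDGFRa+ and Ly6c+ cells, tumor cells by GFP, and CD8+ T cells as CD45+ CD8+ cells. The paper's methods name MC38-luc for the implants but MC38-GFP for the sorted tumor cells, and give the CAFs as GFP-. By the sample labels, CAFs, tumor cells and CD8+ T cells each came from 5 untreated tumors and 10 tumors given short course radiotherapy (SCRT, 5 daily fractions of 5 Gy). A separate CD8+ T cell experiment held, by the labels, 5 samples from mice given SCRT with IgG. The other 6 were from mice given SCRT with an antibody that blocks the type I interferon receptor (anti-IFNAR). The paper instead gives 6 IgG and 5 anti-IFNAR samples for this experiment.

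The 10 tables deposited for these 56 samples hold 1 usable level per gene, a normalized count averaged over every library of a fit (1 model run by the authors), with no value per sample. This mean was identical in all 6 tables of CAFs and tumor cells and identical in all 3 tables of the CD8+ T cell SCRT experiment, which leaves 3 pooled levels per gene. CAFs therefore cannot be told apart from tumor cells, nor untreated tumors from irradiated ones, nor IgG from anti-IFNAR. The spread between replicates and the depth of each library are unknown, so no difference given here was tested and neighbours in an order of levels may not differ. The means summed to 27.7 M in CAFs and tumor cells, 30.9 M in the CD8+ T cell SCRT experiment and 10.8 M in the anti-IFNAR experiment. The 3 fits were normalized separately. To set a gene between them, its mean was divided by the sum of its fit and is given as a share in parts per 1 M (ppm).

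CC chemokines are small secreted proteins, named for a pair of adjacent cysteines, that bind G protein-coupled receptors and direct the migration of leukocytes. Ccl2, Ccl7, Ccl8 and Ccl12 are the monocyte chemoattractant proteins of the mouse, and Ccl2, Ccl7 and Ccl12 are ligands of Ccr2, the receptor that draws inflammatory monocytes into tissue. Ccl3, Ccl4 and Ccl5 are made by activated T cells, NK cells and myeloid cells. Ccl3, Ccl5 and Ccl7 bind Ccr1. In the RefSeq gene order, Ccl2 lies next to Ccl7, Ccl12 next to Ccl8, and Ccl3 next to Ccl4.

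Ccl2 was the leading member in CAFs and tumor cells. Its mean normalized count was 36171 there, 1593 in CD8+ T cells of the SCRT experiment and 190.8 in those of the anti-IFNAR experiment. In CAFs and tumor cells this placed Ccl2 above 99.8% of the 32656 genes with a mean above 0. Its share of all normalized counts was 1306 ppm in CAFs and tumor cells and 51.6 ppm in the CD8+ T cell SCRT experiment, a ratio of 25.3. For comparison, Col1a1, a collagen chain that marks fibroblasts, had a share of 1689 ppm in CAFs and tumor cells.

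Ccl7, the chemokine gene beside Ccl2, had means of 2390 in CAFs and tumor cells, 1043 in the CD8+ T cell SCRT experiment and 73.1 in the anti-IFNAR experiment. Its percentile among genes with a mean above 0 was 91.3, 80.6 and 69.3 in that order. Ccl7 thus followed the order of Ccl2 over the 3 fits, but its share was 2.56 times higher in CAFs and tumor cells than in the CD8+ T cell SCRT experiment, a smaller ratio than that of Ccl2. Per kilobase of exon, the level of Ccl2 was 10.7 times that of Ccl7 in CAFs and tumor cells and 1.07 times in the CD8+ T cell SCRT experiment.

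Ccl8 and Ccl12, the other monocyte chemoattractants, had lower means than Ccl2 and Ccl7 in all 3 fits, but per kilobase of exon both stood above Ccl7 in the anti-IFNAR experiment (112.3 and 116.1 against 91.3 normalized counts). The means of Ccl8 were 344.2 in CAFs and tumor cells, 278.4 in the CD8+ T cell SCRT experiment and 57.4 in the anti-IFNAR experiment, and its percentile was between 67.7 and 73.1 in all 3 fits. Among genes with a mean of at least 10 only, the percentile of Ccl8 was between 28.7 and 40.4. The means of Ccl12 were 113.7, 370.0 and 62.4. Unlike those of Ccl2, Ccl7 and Ccl8, the share of Ccl12 was higher in the CD8+ T cell SCRT experiment than in CAFs and tumor cells, by a ratio of 2.92. Summed over Ccl2, Ccl7, Ccl8 and Ccl12, the share was 1409 ppm in CAFs and tumor cells, 106.3 in the CD8+ T cell SCRT experiment and 35.6 in the anti-IFNAR experiment, and Ccl2 made up most of the first of these.

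Ccl3, Ccl4 and Ccl5 had higher levels in the CD8+ T cell sorts than in CAFs and tumor cells. These sorts also held myeloid transcripts, such as Lyz2 at a mean of 41041 in the SCRT experiment. The part of myeloid cells in the levels of the 3 ligands was not tested. Ccl5, a chemokine of effector and memory CD8+ T cells, had means of 28477 in the SCRT experiment and 4128 in the anti-IFNAR experiment, above 99.6% and 99.1% of genes with a mean above 0. In CAFs and tumor cells its mean was 1898, above 89.0% of such genes. Per kilobase of exon, Ccl5 stood below Ccl2 and Ccl7 in that fit, with 1977 normalized counts. The share of Ccl5 was 921.7 ppm in the CD8+ T cell SCRT experiment and 68.5 in CAFs and tumor cells, a ratio of 13.4.

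Ccl4 had means of 24151 in the CD8+ T cell SCRT experiment, 1257 in the anti-IFNAR experiment and 542.3 in CAFs and tumor cells. The means of Ccl3 were 11399, 1601 and 141.2 in the same order. Both genes encode macrophage inflammatory proteins. The share in the CD8+ T cell SCRT experiment was 39.9 times that in CAFs and tumor cells for Ccl4 and 72.3 times for Ccl3. Per kilobase of exon, Ccl4 led the members in the CD8+ T cell SCRT experiment with 36592 normalized counts, before Ccl5 with 29664 and Ccl3 with 14881. In the anti-IFNAR experiment Ccl5 led with 4300 normalized counts per kilobase, and Ccl3 (2090) and Ccl4 (1905) were close to each other. The plot of levels per kilobase and percentiles sets the monocyte chemoattractants beside Ccl3, Ccl4 and Ccl5 in each fit.

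**Figure D1:**
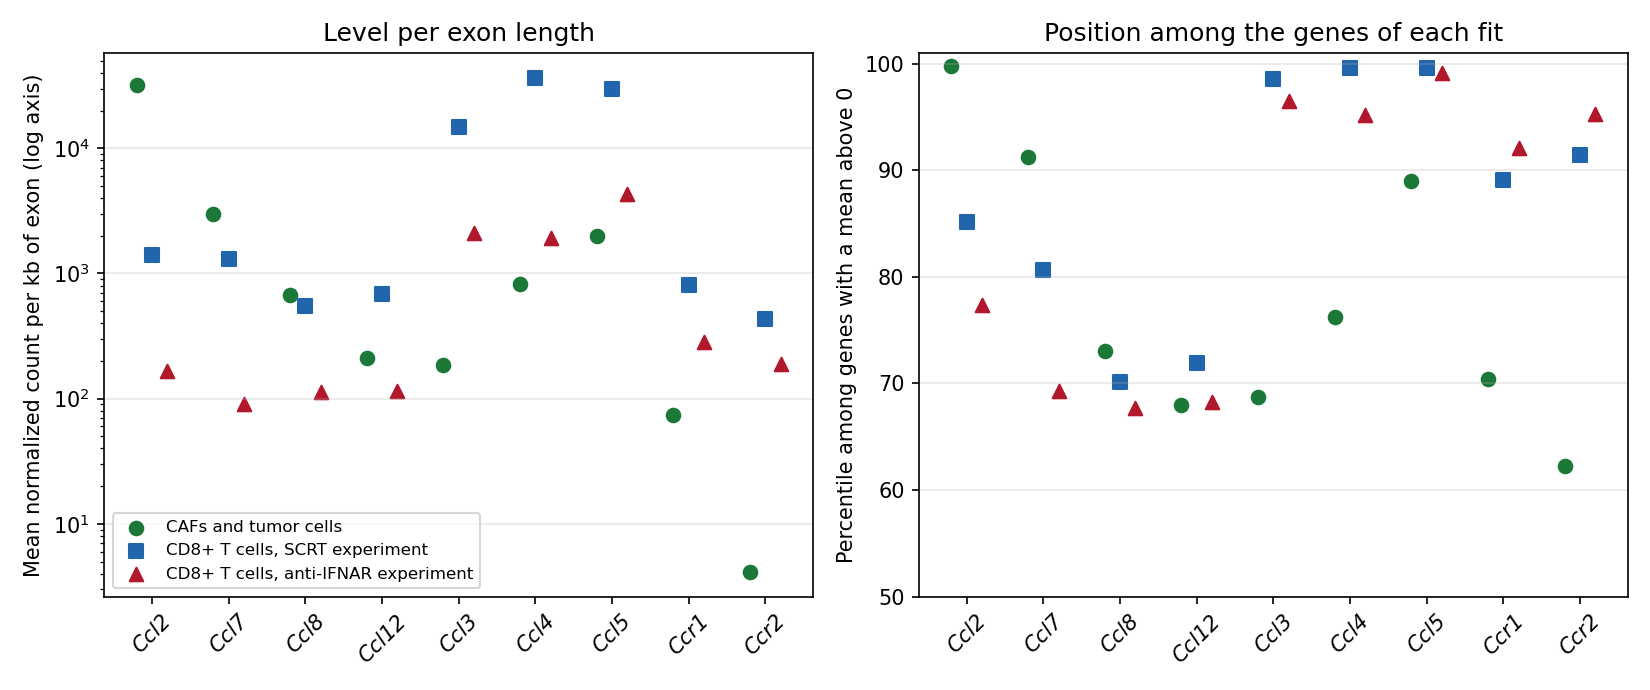
Levels of the 9 members in the 3 pooled fits, as mean normalized count per kilobase of exon (left, log axis) and as percentile among genes with a mean above 0 (right); each point is 1 pooled mean with no error available. Ccl2 is at percentile 99.8 in CAFs and tumor cells, while Ccl3, Ccl4 and Ccl5 are at 95.2 or above in both CD8+ T cell fits.

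The 2 receptors were higher in the CD8+ T cell sorts than in CAFs and tumor cells. Ccr2 had means of 27.9 in CAFs and tumor cells, 2909 in the CD8+ T cell SCRT experiment and 1278 in the anti-IFNAR experiment. Its share was 93.4 times higher in the CD8+ T cell SCRT experiment than in CAFs and tumor cells, which was the highest ratio among the 9 members. Ccr1, a receptor of myeloid cells and some activated T cells, had means of 210.9, 2297 and 809.2, and its ratio was 9.76. The fit with the most Ccl2 was the fit with the least Ccr2. There the receptor stood at percentile 62.2 among genes with a mean above 0 and at 13.8 among genes with a mean of at least 10. CAFs were sorted as CD45- cells. The share of the leukocyte gene Ptprc (CD45) was 978 times higher in the CD8+ T cell SCRT experiment than in that fit, and that of the receptor Ccr7 105 times. The part of the sort in the contrast of Ccl2 and Ccr2 was not tested. Per kilobase, Ccr1 was 18.0 times the level of Ccr2 in CAFs and tumor cells, 1.88 times in the CD8+ T cell SCRT experiment and 1.51 times in the anti-IFNAR experiment.

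Read against all genes, 6 of the 9 members had a higher share in the CD8+ T cell SCRT experiment than in CAFs and tumor cells, where 45.8% of the 12468 genes with a mean of at least 10 in both fits did. The median ratio was 9.76 over the members and 0.929 over those genes. The range from the 5th to the 95th percentile of all these genes ran from 0.0566 to 6.78, as the plot of ratios shows. Ccl2 lay below this range at 0.0395, and Ccl3, Ccl4, Ccl5, Ccr1 and Ccr2 lay above it. Ccl7, Ccl8 and Ccl12 lay within it.

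Both CD8+ T cell experiments were sorts of the same cell type, and they differed in the samples pooled, since the anti-IFNAR experiment held no untreated tumors and the SCRT experiment no antibody. All 7 ligands had a lower share in the anti-IFNAR experiment and both receptors a higher one, where 35.9% of the 12860 genes with a mean of at least 10 in both fits had a higher share. The ratio of shares, anti-IFNAR experiment over SCRT experiment, was 0.149 for Ccl4, 0.201 for Ccl7, 0.344 for Ccl2, 0.403 for Ccl3, 0.416 for Ccl5, 0.484 for Ccl12 and 0.591 for Ccl8. It was 1.01 for Ccr1 and 1.26 for Ccr2. Over the same 12860 genes, the median ratio was 0.748 and the range from the 5th to the 95th percentile ran from 0.271 to 4.04, so only Ccl4 and Ccl7 of the members lay outside it. Markers moved between these fits too. The ratio was 0.315 for Cd3d, 0.372 for Cd8b1, 0.518 for Cd8a, 0.551 for Cd3e and 1.54 for Cd4 of T cells. Over the 9 macrophage and monocyte markers it ran from 0.230 for Cd14 to 3.95 for Mrc1, with 0.847 for Lyz2 and 1.89 for Csf1r. Cd14, Cd68, Lyz2 and C1qb had a lower share in the anti-IFNAR experiment. Adgre1, C1qa, Csf1r, Itgam and Mrc1 had a higher one. The neutrophil markers went both ways, with 0.0807 for S100a8, 0.103 for S100a9, 1.73 for Csf3r and 1.70 for Ly6g. Ly6g had means of only 3.73 in the SCRT experiment and 2.20 in the anti-IFNAR experiment. The part of these markers in the ratios of the members was not tested. The experiment, the treatment of the mice and the size of the libraries cannot be told apart in this ratio.

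**Figure D2:**
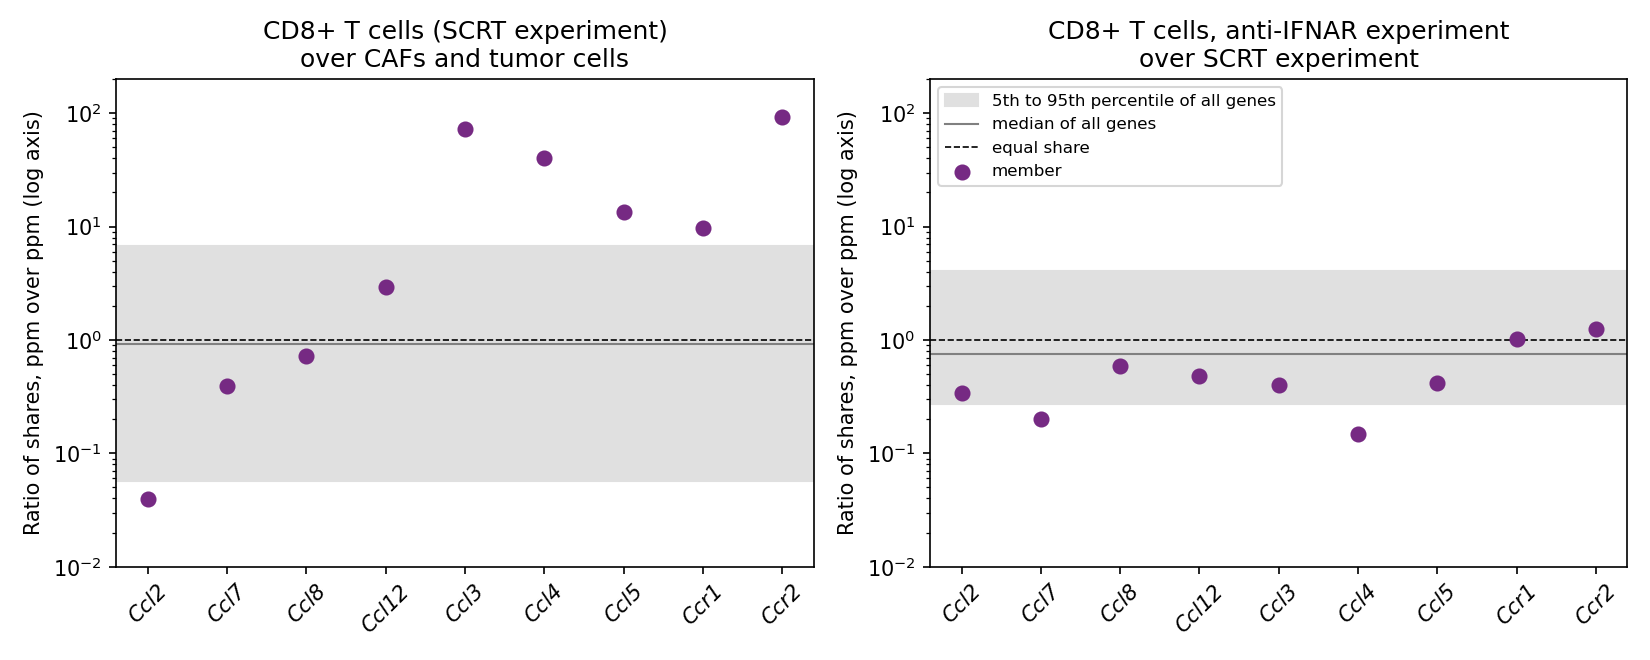
Ratio of each member's share (ppm over ppm) between 2 fits (log axes), for the CD8+ T cell SCRT experiment over CAFs and tumor cells (left) and the CD8+ T cell anti-IFNAR experiment over the SCRT experiment (right); points are single ratios of pooled means with no error available. The grey band is the 5th to 95th percentile of all genes with a mean of at least 10 in both fits, and on the left Ccl2 lies below the band and 5 members above it.

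The sorts were checked on markers of the labelled and other cell types. In CAFs and tumor cells, Pdgfra had a mean of 12488 and all 6 fibroblast markers were at 1924 or above, whereas the leukocyte gene Ptprc (CD45) had a mean of 50.4 and the 5 T cell markers were at 5.74 or below. The 9 macrophage and monocyte markers summed to 126.1 ppm in that fit and ranged from 34.5 for Itgam to 1402 for Lyz2. In the CD8+ T cell SCRT experiment, Cd8a had a mean of 46970 and Cd8b1 of 43081. The macrophage and monocyte markers summed to 2379 ppm there and to 2292 ppm in the anti-IFNAR experiment, beside 4357 and 1961 ppm for the 5 T cell markers. Lyz2, a lysozyme gene of myeloid cells, was at 41041 and Csf1r, the receptor for macrophage colony-stimulating factor, at 5066 in the CD8+ T cell SCRT experiment. The fibroblast markers summed to 61.6 and 176.6 ppm in the SCRT and anti-IFNAR CD8+ T cell experiments. Of these sums, Col1a1 alone held 34.9 and 147.7 ppm. In CAFs and tumor cells, the epithelium list summed to 81.1 ppm, of which Krt8 held 55.8 ppm, beside 3811 ppm for the fibroblast list. The paper identified malignant regions in part by a lack of EpCAM, so the epithelium list need not mark the tumor cells. These sums therefore do not give the parts of CAFs and of tumor cells in the fit. The epithelium list summed to 47.1 and 62.2 ppm in the SCRT and anti-IFNAR CD8+ T cell experiments. The lists of neutrophils, B and plasma cells, endothelium and NK cells each summed to 73.9 ppm or less in every fit. Monocytes and macrophages also express Ccr1, Ccr2 and the ligands described here, and the part of such cells in the levels of the CD8+ T cell fits was not tested. The plot of summed shares sets the member groups beside these marker lists. In bulk samples, fewer cells of a type and less RNA per cell cannot be told apart.

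**Figure D3:**
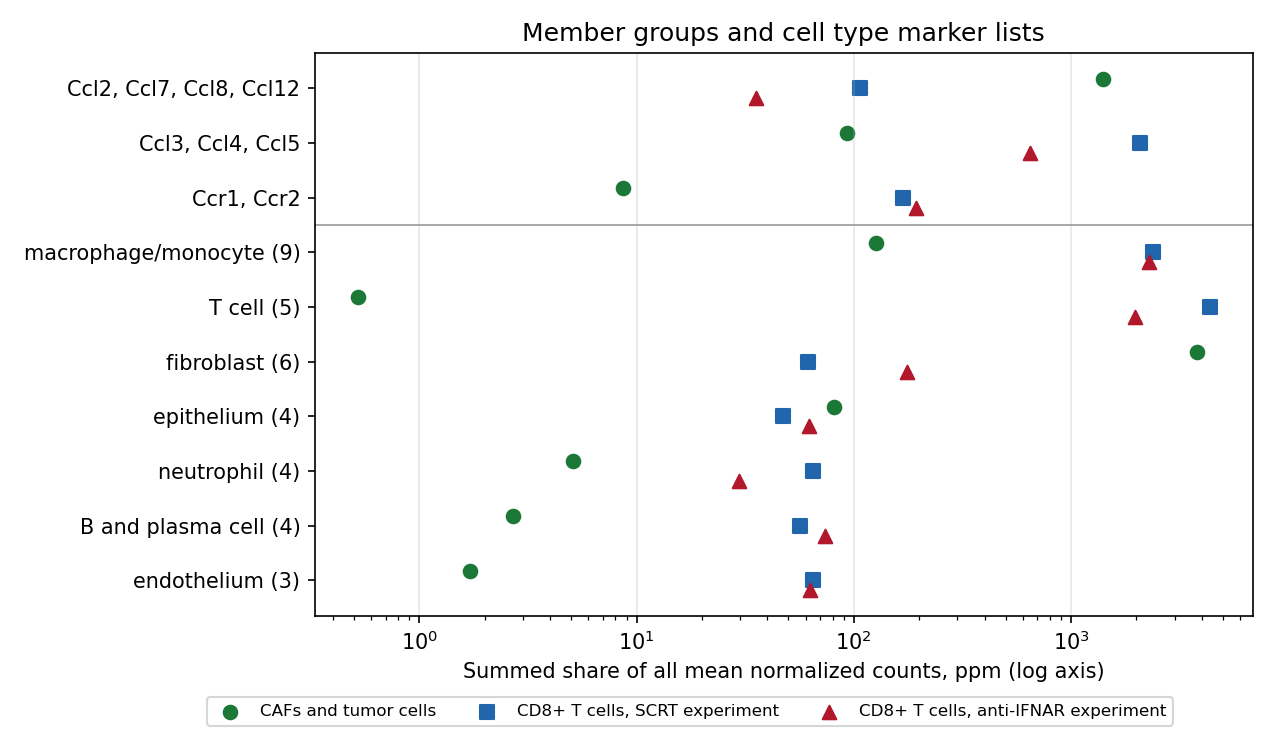
Summed share in ppm (log axis) of the 3 member groups (top) and of 7 cell type marker lists with their number of genes in parentheses (bottom) in each fit; each point is 1 sum of pooled means with no error available. The T cell list spans 0.520 in CAFs and tumor cells to 4357 in the CD8+ T cell SCRT experiment, and the macrophage and monocyte list is at 2379 and 2292 in the 2 CD8+ T cell fits.

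Of the other 25 genes of the CC chemokine family, 11 had a mean of at least 10 in CAFs and tumor cells. The median mean of the 25 was 5.19 and the highest was 948.4 for Ccrl2, an atypical receptor that binds chemerin. For the 9 members the median mean was 344.2 in that fit. In the CD8+ T cell SCRT experiment 17 of the 25 and in the anti-IFNAR experiment 14 of the 25 had a mean of at least 10. Of all genes with a mean above 0, 43.8% reached that level in CAFs and tumor cells. In the CD8+ T cell SCRT and anti-IFNAR experiments, 50.1% and 45.3% did. Ccr7, which guides T cells to lymphoid tissue, had a mean of 8955 in the CD8+ T cell SCRT experiment and of 2129 in the anti-IFNAR experiment. Ccl22, a chemokine of dendritic cells and macrophages, had a mean of 835.5 in the SCRT experiment and of 2272 in the anti-IFNAR experiment. Its share was 7.81 times higher in the anti-IFNAR experiment, the opposite direction to that of the 7 ligands among the members. The ligands outside the members went both ways. Ccl6, which had the highest mean of them in the SCRT experiment, had a ratio of shares of 0.524, anti-IFNAR experiment over SCRT experiment.

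Close relatives in a gene family can share reads, so the transcripts of the 7 ligands and Ccr1 were compared with those of every other gene. None of the 100-base windows of Ccl2, Ccl7, Ccl8, Ccl12, Ccl3, Ccl4, Ccl5 or Ccr1, the length of the reads, was found in the transcripts of another gene in the GENCODE M21 set. This check covers exact matches on the strand of the transcript and not reads with mismatches.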

How the data were processed

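RNA was preamplified with the SMARTer Ultra Low Input kit and libraries were made with NexteraXT, which does not mark strand, and sequenced as single-end reads of 100 nt. The submitters' processing notes name fastp 0.20.1, STAR 2.7.6a, DESeq2 1.28.1, R 4.0.2 and the build mm39, and the counting tool and annotation are not given in the sources used here. The signal used is the BaseMean that the authors deposited, read counts divided by DESeq2 size factors and averaged over the libraries of a fit. Which libraries entered each fit is inferred from the table names and from the means that were identical between tables. The names of the 3 tables taken as the CD8+ T cell SCRT experiment give no cell type. In all 3 fits, 50692 symbols were listed. The other columns hold the authors' own comparisons (log2 fold change, Wald statistic, p-value and adjusted p-value between untreated, responding and nonresponding tumors, or anti-IFNAR and IgG), and were not used here. The per-sample labels do not give responders and nonresponders. No columns of values per sample were read.

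Percentiles, shares in ppm and ratios were computed with pandas 2.3.3 and numpy 2.4.6 in Python 3.11.15. Their arithmetic was checked on made-up values with known answers. Means were divided by the union of exons of each gene in GENCODE M21, and gene order was read from the RefSeq annotation of GRCm38.p6. Both are on another build than the reads were aligned to, so no coordinates are given. Percentiles are among genes with a mean above 0, and backgrounds of ratios are genes with a mean of at least 10 in both fits. Named genes were the 9 members, at most 4 of the other 25 family genes, and cell type markers. The members and lists were chosen with earlier results of these data known. No test was made, since no spread between samples is known. Alternatives were the background of the percentiles, the sum behind the shares, and no division by length. 1 gene of the family and the values that need it are not reported here.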

Additional observations from a re-analysis of the deposited data

How the results depend on the processing

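The ratios of shares kept their direction for all 9 members in both comparisons of fits under both other sums. Every ratio of the CD8+ T cell SCRT experiment over CAFs and tumor cells was multiplied by 0.992 when the 100 genes of highest mean were left out of each sum and by 1.04 when the sum was over genes with a mean of at least 10 in every fit. For the anti-IFNAR over the SCRT experiment these factors were 1.32 and 1.12. The number of members at percentile 90 or above was 2 in CAFs and tumor cells, 4 in the CD8+ T cell SCRT experiment and 5 in the anti-IFNAR experiment. Among genes with a mean of at least 10 it was 1, 3 and 2, and among all genes listed it was 3, 6 and 5. The percentiles of the lower members moved most, and with that minimum of 10 the lowest in each fit were 13.8 for Ccr2 in CAFs and tumor cells, and 40.4 and 28.7 for Ccl8 in the CD8+ T cell SCRT and anti-IFNAR experiments. Without division by length, 7 members kept their place in the order in CAFs and tumor cells, 1 in the CD8+ T cell SCRT experiment and 3 in the anti-IFNAR experiment. Ccr2, the member with the longest exons, moved from place 9 to 4 in the SCRT experiment and from 5 to 3 in the anti-IFNAR experiment. No paired analysis was possible because the tables hold no values per sample. For the same reason no replicate was left out, no alternative normalization of counts or other pseudocount was run, and no change with treatment was computed. The depth of each library is unknown, so what it limits could not be assessed.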
